A study of Mus musculus with 8 samples.

Results

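The genes described here are 10 members of the BCL2 family, the proteins that decide at the mitochondrial outer membrane whether a cell survives or dies. They were taken by name from a list, with the identifiers of the table matched to mouse GENCODE symbols: the anti-apoptotic genes Bcl2, Bcl2l1, Mcl1 and Bcl2a1b, the effectors Bax and Bak1, and the BH3-only genes Bcl2l11, Bid, Bbc3 and Pmaip1. All 10 were found among the 55357 genes of the table, and all 10 had enough reads to be among the 14514 genes tested.

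RNA sequencing was performed on bone marrow-derived macrophages (BMDM) of C57BL/6J wild-type mice, grown from femur and tibia marrow with macrophage colony-stimulating factor. In all, 4 libraries, named 1 to 4, came from BMDM given 2 μM of the sphingoid base So(d18:1), sphingosine, in methanol for 6 h, and 4 came from control BMDM given methanol for 6 h. According to the paper the BMDM were under an inflammatory stimulus, which the sample labels do not name. Neither the labels nor the methods say whether the libraries of a group came from separate mice or cultures, so the p-values measure the spread between these libraries, which may be technical.

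The anti-apoptotic proteins hold the effectors in check. When BH3-only proteins, which sense stress, loss of growth factor signalling or DNA damage, bind the anti-apoptotic proteins or the effectors directly, BAX and BAK assemble into pores, cytochrome c leaves the mitochondria and caspases are activated. In myeloid cells MCL1 and the A1 proteins encoded by the Bcl2a1 genes are well-known survival factors, and BIM, encoded by Bcl2l11, is a main trigger of death when growth factor is withdrawn. Many of these proteins are controlled after translation, and the values here are levels of polyadenylated RNA only.

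Total counts lay between 17748397 and 26088609 per library. The summed CPM (counts scaled to library size, on edgeR's TMM scale) of 7 macrophage markers was 30123 to 32413 in control and 26006 to 30868 in So(d18:1) libraries. Of these markers, Mertk and Cd68 fell and Itgam rose by edgeR (log2 fold changes -0.38, -0.22 and 0.18), and the other 4 were not called. Of all tested genes, 5.07% fell and 3.87% rose at an adjusted p under 0.05 by edgeR. The summed CPM of 10 neutrophil markers, such as S100a8 and Mpo, was 1741, 1700, 2345 and 2096 in control libraries 1 to 4 and 1519, 1339, 1400 and 1518 in So(d18:1) libraries 1 to 4, so the groups did not overlap. All 10 neutrophil markers had a negative log2 fold change, and none was at 0. By edgeR's quasi-likelihood test 5 of them had an adjusted p under 0.05, where 5.07% of all tested genes fell. In bulk samples, fewer cells of a type and less RNA per cell cannot be told apart. The B cell markers summed to 15.6 to 17.7 in control and 12.9 to 16.5 in So(d18:1) libraries. By edgeR 0 of 4 genes were called and 3 of 4 had an unadjusted p under 0.05, against 23.4% of all tested genes. T cell, mast cell and erythroid markers summed to at most 0.224, 0.729 and 1.15.

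Of the 10 members, 4 passed the test at an adjusted p under 0.05, against 8.94% of all tested genes. The members, and the gene lists below, were chosen with earlier results of these data known. The shares set beside them are therefore descriptions and not a test of the family. Bcl2, Bcl2a1b and Bcl2l11 fell, where 5.07% of all genes fell, and Bbc3 rose, where 3.87% of all genes rose. An unadjusted p under 0.05 was reached by 6 members, including Bcl2l1 and Bak1, and by 23.4% of all tested genes. The median log2 fold change of the 10 members was 0.01, and that of all tested genes was 0.0036. In 3 members, Bcl2, Bcl2l11 and Bbc3, the CPM of the groups did not overlap, as in 15.0% of all tested genes.

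**Figure D1:**
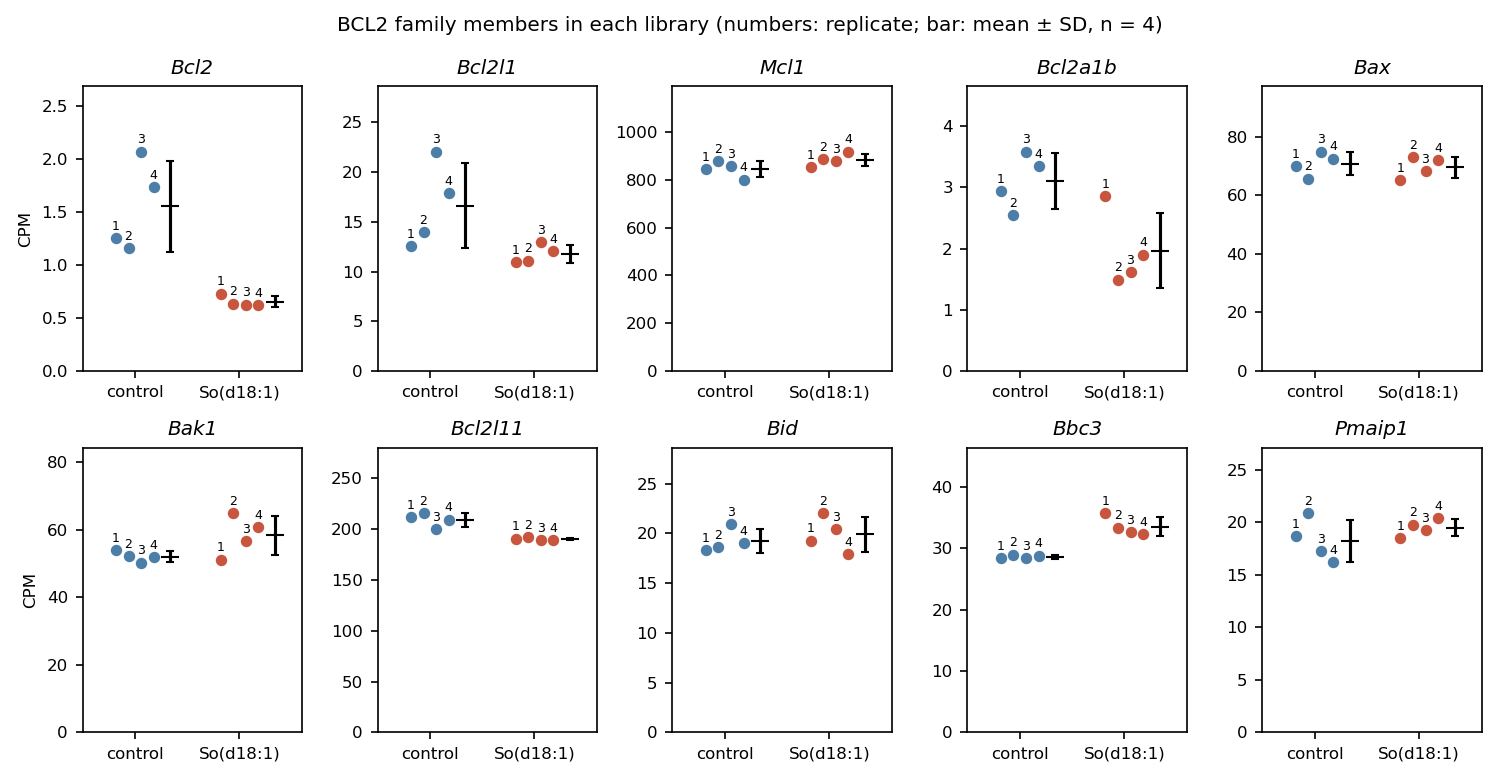
CPM (vertical axis, from 0) of each member in the 4 control (blue) and 4 So(d18:1) (red) libraries, with the replicate number above each point and the mean ± SD (n = 4) in black. The groups are apart in Bcl2, Bcl2l11 and Bbc3 and overlap in the other 7 members, and control library 3 is the highest of all in Bcl2, Bcl2l1 and Bcl2a1b.

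Where values are given for every library, they follow libraries 1 to 4 of each group. Bcl2, the founding anti-apoptotic gene (ENSMUSG00000057329, GRCm38 chr1:106538178-106714274, minus strand), was the least abundant member by CPM and per gene length and had the most negative fold change. Its level was 1.25, 1.15, 2.07 and 1.73 CPM in control libraries 1 to 4 and 0.729, 0.633, 0.625 and 0.621 CPM in So(d18:1) libraries 1 to 4. Every So(d18:1) library lay below every control library, and control libraries 3 and 4 were the highest. The mean fell from 1.55 ± 0.426 to 0.652 ± 0.0516 CPM (SD, n = 4), a 2.38-fold lower level (log2 fold change -1.25, SE 0.28, adjusted p = 0.00573 by edgeR's quasi-likelihood test with Benjamini-Hochberg adjustment). These values rest on 12 to 49 reads per library. An exact two-sided permutation test of the CPM gave p = 0.0286, the smallest that 4 against 4 libraries allow.

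The promoter of Bcl2 is GC-rich and carries several copies of the GC box, the letters GGGCGG to which SP1-type factors can bind. A stretch of it is shown because Bcl2 had the largest change of the members. It is given 5′ to 3′ on the gene's strand from RefSeq GRCm38.p6, with the GC boxes in capitals (minus strand, chr1:106714414-106714513, 223 to 124 bases before the RefSeq start).
Bcl2: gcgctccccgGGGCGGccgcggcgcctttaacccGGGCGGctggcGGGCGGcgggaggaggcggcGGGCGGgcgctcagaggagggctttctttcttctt
The stretch holds 4 GC boxes. Searched on both strands, the box occurred in 35.7% of all 32851 RefSeq promoter windows (250 bases before to 50 after a start) and in 13 of the 17 windows of the members other than Pmaip1, whose promoter was not searched, and of the other Bcl2a1 genes. These 17 windows are not separate genes. Bbc3 and Bcl2l1 have 3 each and Bcl2l11 has 2, some windows of Bbc3 overlap, and the Bcl2a1 genes are related copies.

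Bcl2l1, which encodes BCL-XL (ENSMUSG00000007659, chr2:152780668-152831728, minus strand), measured 12.6, 13.9, 22.0 and 17.9 CPM in the controls and 10.9, 11.1, 13.0 and 12.0 CPM after So(d18:1). So(d18:1) library 3 lay above control library 1, and control libraries 3 and 4 again stood above the rest. The log2 fold change was -0.50 (SE 0.16, 95% interval -0.84 to -0.16) and did not pass in edgeR (adjusted p = 0.0721). It did pass in several alternatives, among them fits with no filter on low counts (adjusted p = 1.40e-05), with the DESeq2 Wald test (adjusted p = 0.00817), without control library 1 (adjusted p = 0.00764) and without control library 2 (adjusted p = 0.0378), all with edgeR except where DESeq2 is named. The call for Bcl2l1 therefore depended on the processing, while its direction did not.

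Bcl2a1b (ENSMUSG00000089929, chr9:89199209-89207827, plus strand) belongs to the mouse Bcl2a1 genes, related copies of the gene of A1, an NF-kB target in myeloid cells. Its level was 2.93, 2.55, 3.58 and 3.34 CPM in the controls and 2.86, 1.49, 1.61 and 1.90 CPM after So(d18:1). So(d18:1) library 1 lay among the control libraries, while the other 3 lay below all of them. The log2 fold change was -0.67 (SE 0.21, adjusted p = 0.0448 by edgeR's quasi-likelihood test), and the exact permutation p was 0.0571. The call was lost in 6 of the 8 fits that left out 1 library, those without control 1, 3 or 4 and without So(d18:1) 2, 3 or 4, with an adjusted p of up to 0.154 by edgeR.

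Of the 50-base words of the Bcl2a1b transcripts, 79.2% also occur in transcripts of other genes: 57.6% in Bcl2a1d and 41.1% in Bcl2a1a, but 0.26% in Bcl2a1c. The exons of Bcl2a1b also share 49.1% of their bases with those of the same-strand gene Gm29094, which held 0 to 1 counts. How reads that match several genes were counted was not given in the sources used here, so the share of each Bcl2a1 gene is uncertain. Bcl2a1d had a log2 fold change of -0.61 (SE 0.24) and was not called (adjusted p = 0.129 by edgeR). Its log2 fold change was -0.789 without control library 1 (adjusted p = 0.0379), -0.384 without control library 3 (adjusted p = 0.413) and -0.22 without control libraries 3 and 4 (adjusted p = 0.742), all by edgeR. Bcl2a1a held 3 to 15 counts and was not tested, and Bcl2a1c held 0 counts in all 8 libraries.

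A sum over the 4 Bcl2a1 genes leaves aside which single copy a read was given to. Reads left uncounted, or counted for several copies, would still affect it. The summed level was 4.47, 4.98, 7.59 and 6.19 CPM in the controls and 4.54, 3.71, 3.44 and 3.65 CPM after So(d18:1). Only So(d18:1) library 1 reached into the control range. The sum fell by 0.61 on the log2 scale (SE 0.16, adjusted p = 0.0223 by edgeR). It lost the call in 5 of the 8 fits that left out 1 library, those without control 3 or 4 and without So(d18:1) 2, 3 or 4, with an adjusted p of up to 0.0982 by edgeR and log2 fold changes between -0.71 and -0.45.

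The promoters of these copies are shown for Bcl2a1a, Bcl2a1b and Bcl2a1d, the copies with reads, so that they can be compared. Each stretch is in the direction of its gene, from RefSeq GRCm38.p6, and the capitals mark the PU.1 box, the letters GAGGAAGT, to which the myeloid ETS factor PU.1 can bind.
Bcl2a1a: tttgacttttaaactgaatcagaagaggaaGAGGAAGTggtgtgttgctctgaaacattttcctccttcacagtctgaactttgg
Bcl2a1b: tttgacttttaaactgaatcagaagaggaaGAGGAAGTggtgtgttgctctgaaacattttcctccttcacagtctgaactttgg
Bcl2a1d: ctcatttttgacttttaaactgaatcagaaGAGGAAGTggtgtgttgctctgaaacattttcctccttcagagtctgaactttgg
The stretch of Bcl2a1a lies at chr9:88956786-88956870 (plus strand), that of Bcl2a1b at chr9:89199095-89199179 (plus strand) and that of Bcl2a1d at chr9:88731900-88731984 (minus strand). Those of Bcl2a1a and Bcl2a1b were identical in all 85 bases. Bcl2a1b held 31 to 85 counts per library and Bcl2a1a 3 to 15, but how reads that match both copies were counted was not given. Aligned on the box without gaps, Bcl2a1d was identical to both in 69 of 85 bases, and from the box onward in 54 of 55. The PU.1 box, searched on both strands, occurred in 3.2% of all RefSeq promoter windows and in 5 of the 17 windows here, those of the 4 Bcl2a1 genes and of Bak1. The 3 motifs shown for these genes were chosen after their matches were seen, and a match is a description of the letters, not a site of binding.

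Mcl1, the anti-apoptotic gene with the highest level (ENSMUSG00000038612, chr3:95658788-95663176, plus strand), measured 845, 880, 857 and 802 CPM in the controls and 854, 887, 878 and 919 CPM after So(d18:1). The groups overlapped, and the log2 fold change was 0.06 (95% interval -0.03 to 0.15, adjusted p = 0.400 by edgeR). Compared per gene length, Mcl1 made up 96.4% to 97.6% of the summed RPKM (reads scaled to library size and gene length) of the 4 anti-apoptotic members in controls and 97.7% to 98.4% after So(d18:1). As counted, the anti-apoptotic genes that fell held a small share of the summed RPKM of these 4 members. The part of Bcl2a1b in this sum is uncertain, since how reads that match several genes were counted was not given. Further BCL2 family genes are not in this sum, such as Bcl2l2 at a mean of 8.85 RPKM and Bcl2a1d at 2.71 RPKM in control libraries.

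**Figure D2:**
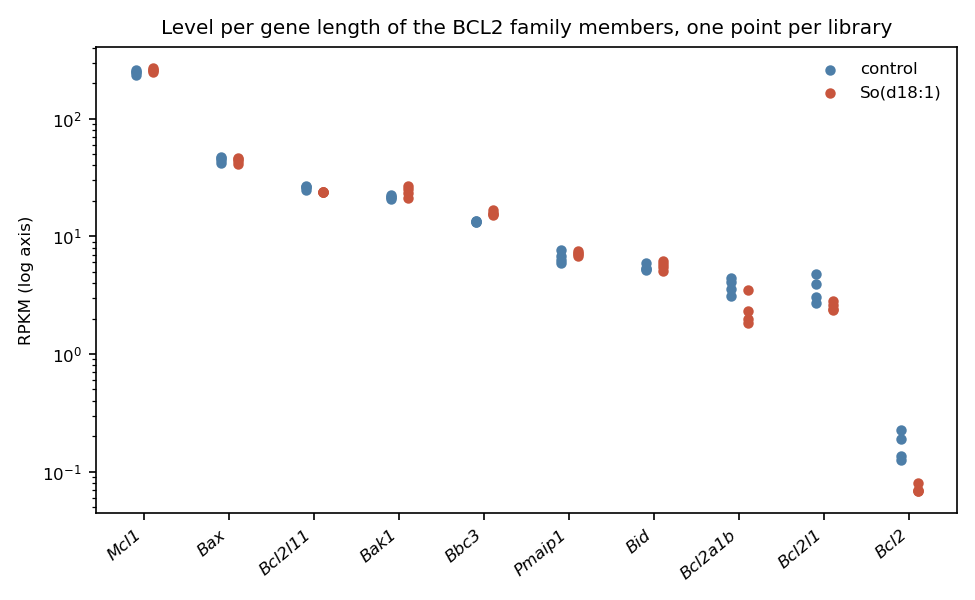
RPKM (vertical log axis) of each member in the 4 control (blue) and 4 So(d18:1) (red) libraries, 1 point per library, ordered by the control mean. Mcl1 is highest, at a mean of 248 RPKM in control libraries, and Bcl2 lowest, at 0.169 RPKM.

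In control libraries the order of mean RPKM was Mcl1 (248), Bax (44.9), Bcl2l11 (26.1), Bak1 (21.6), Bbc3 (13.5), Pmaip1 (6.68), Bid (5.42), Bcl2a1b (3.80), Bcl2l1 (3.62) and Bcl2 (0.169). The ranges of neighbours in this order did not overlap except those of Bcl2a1b and Bcl2l1. In So(d18:1) libraries the means were 259, 44.2, 23.7, 24.3, 15.8, 7.13, 5.61, 2.41, 2.56 and 0.0712 RPKM in the same order of genes. There the range of Bak1 overlapped that of Bcl2l11, and the range of Bcl2l1 overlapped that of Bcl2a1b. The summed RPKM of the 6 pro-apoptotic members divided by that of the 4 anti-apoptotic members was 0.443 to 0.488 in control and 0.447 to 0.479 in So(d18:1) libraries, and the ranges overlapped.

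The effectors showed no called change. Bax (ENSMUSG00000003873, chr7:45461697-45466898, minus strand), one of the pore-forming proteins, measured 69.95, 65.8, 75.0 and 72.6 CPM in the controls and 65.3, 73.1, 68.3 and 72.1 CPM after So(d18:1). The groups were interleaved, with a log2 fold change of -0.02 (95% interval -0.13 to 0.09, adjusted p = 0.862 by edgeR). Bak1 (ENSMUSG00000057789, chr17:27019810-27029009, minus strand), the other pore-forming protein, measured 54.0, 52.3, 50.3 and 51.8 CPM in the controls and 51.2, 64.9, 56.7 and 60.8 CPM after So(d18:1). So(d18:1) libraries 2, 3 and 4 lay above all controls, and library 1 lay among them. The log2 fold change was 0.17 (SE 0.06, adjusted p = 0.0982 by edgeR), and it passed with no filter on low counts (adjusted p = 0.0448) and without So(d18:1) library 1 (adjusted p = 0.0250). Bak1 shares 18.2% and 7.35% of its exon bases with 2 entries for Ggnbp1 on the opposite strand, which held 18 to 40 and 1 to 4 counts, against at least 913 for Bak1.

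Among the BH3-only genes, Bbc3 rose and Bcl2l11 fell, each by a small amount. Bbc3 encodes PUMA, a p53 and FOXO target that binds all anti-apoptotic members (ENSMUSG00000002083, chr7:16308393-16318205, plus strand). Its level was 28.3, 28.9, 28.3 and 28.8 CPM in the controls and 35.7, 33.3, 32.6 and 32.2 CPM after So(d18:1). All 4 So(d18:1) libraries lay above all 4 control libraries, which differed little among themselves. The mean went from 28.6 ± 0.307 to 33.5 ± 1.54 CPM (SD, n = 4; log2 fold change 0.23, SE 0.06, a rise of 16.9%; adjusted p = 0.0186 by edgeR; exact permutation p = 0.0286). Without So(d18:1) library 1, the highest, the log2 fold change was 0.195 and the adjusted p by edgeR was 0.0623.

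Bcl2l11, which encodes BIM (ENSMUSG00000027381, chr2:128126038-128162547, plus strand), measured 212, 216, 200 and 209 CPM in the controls and 190.6, 192, 190 and 189 CPM after So(d18:1). The 4 So(d18:1) libraries were close together and below all controls, of which library 3 was nearest. The mean went from 209 ± 6.68 to 190 ± 1.27 CPM (SD, n = 4; log2 fold change -0.14, SE 0.04, adjusted p = 0.0395 by edgeR; exact permutation p = 0.0286). The call was lost with scaling by library size alone (adjusted p = 0.0557), with no filter on low counts (adjusted p = 0.0750) and in 7 of the 8 edgeR fits that left out 1 library, with an adjusted p of up to 0.107. The exception was the fit without control library 3.

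Because the 2 genes moved in opposite directions, their ratio in each library separated the groups: Bbc3 CPM divided by Bcl2l11 CPM was 0.134 to 0.142 in control and 0.170 to 0.187 in So(d18:1) libraries. This ratio was formed after the values were seen and is given without a test.

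Both genes are textbook targets of FOXO factors, which bind forkhead boxes, and a stretch of each promoter is shown around its forkhead box in capitals (letters GTAAACA, or TGTTTAC where the match is on the other strand).
Bcl2l11: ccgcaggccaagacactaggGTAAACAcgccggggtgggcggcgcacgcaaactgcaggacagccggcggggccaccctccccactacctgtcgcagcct
Bbc3: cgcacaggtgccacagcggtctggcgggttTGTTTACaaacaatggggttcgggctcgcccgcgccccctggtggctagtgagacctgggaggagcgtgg
The Bcl2l11 stretch lies at chr2:128125791-128125890 and that of Bbc3 at chr7:16310064-16310163, both on the plus strand of GRCm38.p6 from RefSeq. The box begins 227 bases before the RefSeq start in Bcl2l11 and 167 bases before it in 1 of the Bbc3 windows. It occurred in 3.65% of all promoter windows and, among the 17 windows here, in these 2.

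The other 2 BH3-only genes showed no called change. Bid, whose protein links death receptors to mitochondria after cleavage by caspase-8 (ENSMUSG00000004446, chr6:120891930-120916853, minus strand), measured 18.3, 18.6, 21.0 and 19.0 CPM in the controls and 19.3, 22.0, 20.5 and 17.9 CPM after So(d18:1). The groups overlapped throughout (log2 fold change 0.05, SE 0.08, adjusted p = 0.768 by edgeR). Bid shares 17.7% of its exon bases with Bcl2l13 on the opposite strand, and whether counting used strand was not given in the sources used here. Pmaip1 encodes NOXA, a BH3-only partner of MCL1 (ENSMUSG00000024521, chr18:66458533-66465565, plus strand). Its level was 18.7, 20.9, 17.2 and 16.2 CPM in the controls and 18.5, 19.8, 19.3 and 20.4 CPM after So(d18:1). So(d18:1) libraries 2, 3 and 4 lay between control libraries 1 and 2, the highest controls, and the log2 fold change was 0.10 (SE 0.08, adjusted p = 0.523 by edgeR).

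**Figure D3:**
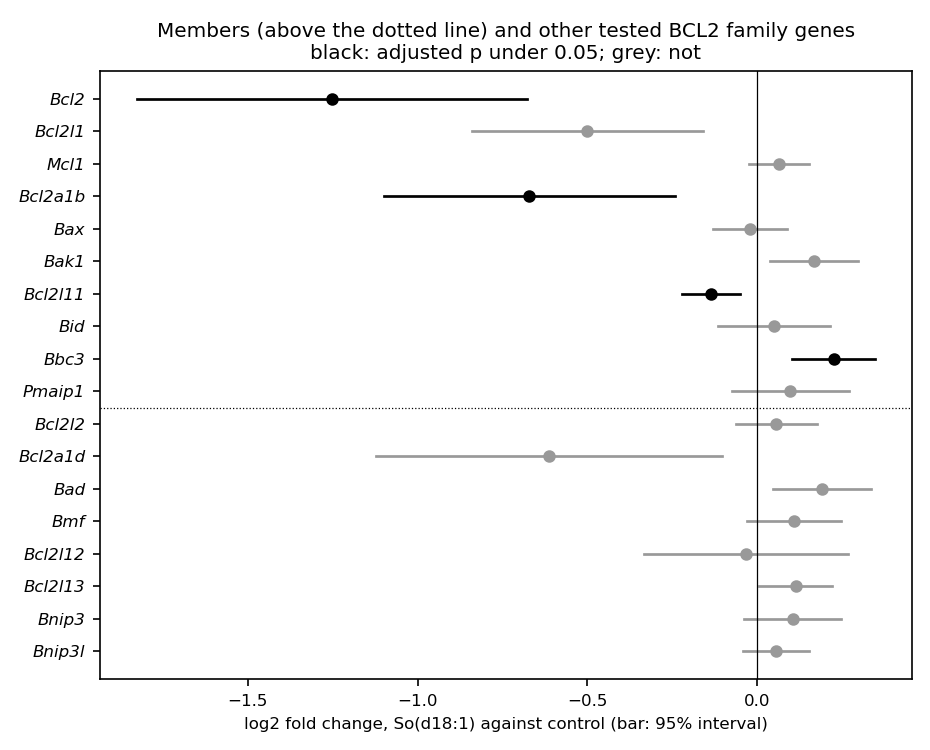
Log2 fold change of So(d18:1) against control (horizontal axis) with its 95% interval from edgeR, for the 10 members and the 8 other BCL2 family genes tested. Black marks an adjusted p under 0.05: Bcl2 at -1.25, Bcl2a1b at -0.67, Bcl2l11 at -0.14 and Bbc3 at 0.23. The intervals of Bcl2, Bcl2l1, Bcl2a1b and Bcl2a1d are the widest.

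Among the controls, libraries 3 and 4 were the highest in Bcl2, Bcl2l1, Bcl2a1b and the summed Bcl2a1 genes, and they were also the highest in the neutrophil markers. Library 3 led in each of these, followed by library 4. Bbc3 showed no such order, with 28.3 to 28.9 CPM over all 4 controls. Leaving out both of these controls, an alternative chosen after seeing the data, kept 2 controls against 4 So(d18:1) libraries and gave log2 fold changes nearer 0: -0.88 for Bcl2 (adjusted p = 0.168 by edgeR), -0.18 for Bcl2l1 (adjusted p = 0.432), -0.49 for Bcl2a1b (adjusted p = 0.319) and -0.31 for the summed Bcl2a1 genes (adjusted p = 0.370). All So(d18:1) values of Bcl2 still lay below those of control libraries 1 and 2. In the same fit Bbc3 kept its size (log2 fold change 0.221) without passing (adjusted p = 0.0771 by edgeR), and Bcl2l11 passed (log2 fold change -0.17, adjusted p = 0.0261), so that 1 of the 10 members was called in it. Over all genes this fit called 865, against 1298 with all libraries. Control libraries 3 and 4 were the highest controls in Bcl2, Bcl2l1 and the Bcl2a1 genes themselves. Leaving them out therefore had to bring these log2 fold changes nearer 0, whatever the cause. The part of the neutrophil markers in the fall of Bcl2 and the Bcl2a1 genes was not tested.

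**Figure D4:**
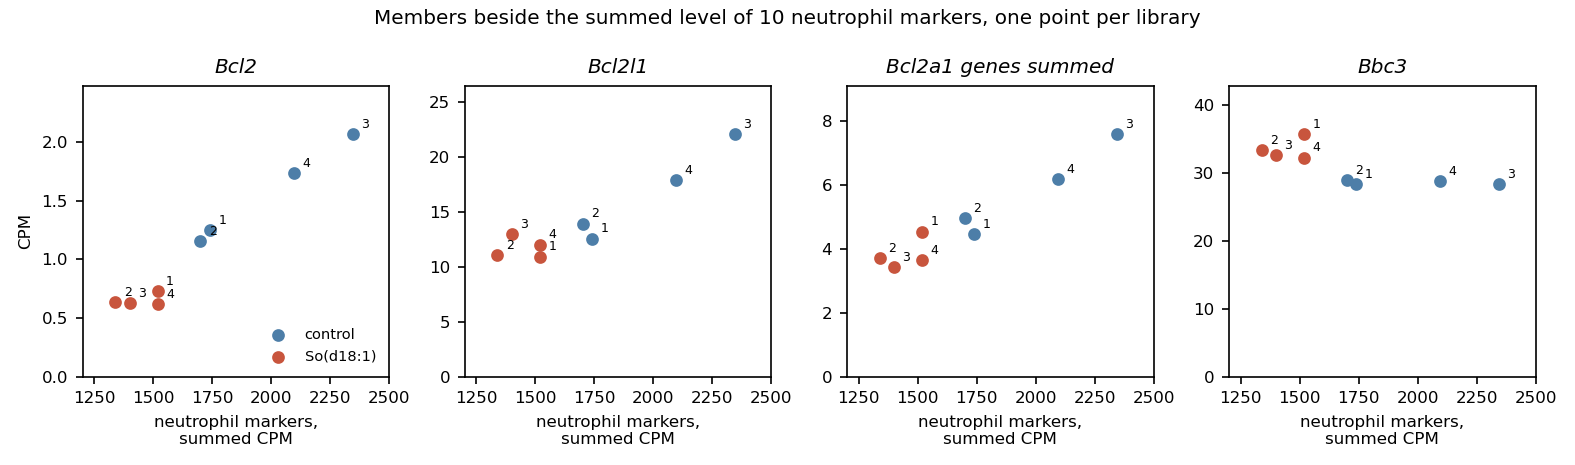
CPM (vertical axis, from 0) of Bcl2, Bcl2l1, the summed Bcl2a1 genes and Bbc3 against the summed CPM of 10 neutrophil markers (horizontal axis), 1 point per library with its replicate number, control in blue and So(d18:1) in red. Control libraries 3 and 4 lie at the upper right in the first 3 panels, while Bbc3 is level over the controls.

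Of 16 further BCL2 family genes, 8 had enough reads to be tested. Of these, 0 were called by edgeR, against 8.94% of all tested genes, and 3 had an unadjusted p under 0.05, against 23.4% of all tested genes. The DESeq2 Wald test also called 0. Named after their values were seen, these 3 were Bcl2a1d, Bad (a BH3-only gene; log2 fold change 0.19, adjusted p = 0.0939 by edgeR) and Bcl2l13 (0.11, adjusted p = 0.186 by edgeR). The median log2 fold change of the 8 was 0.08. Bcl2a1c, Bcl2l10 and Hrk held 0 counts in every library. Bmf, another BH3-only gene, measured 125 ± 9.39 CPM in controls and 135 ± 12.4 CPM after So(d18:1) (SD, n = 4; adjusted p = 0.350 by edgeR).

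Of 17 genes listed for the mitochondrial death pathway, 2 rose and 0 fell by edgeR, where 3.87% and 5.07% of all genes did, with a median log2 fold change of 0.06. Birc3, which encodes the inhibitor of apoptosis cIAP2, measured 196, 198, 173 and 176 CPM in the controls and 247, 238, 249 and 251 CPM after So(d18:1), without overlap (log2 fold change 0.41, SE 0.05, adjusted p = 8.41e-06 by edgeR). Control libraries 3 and 4, high in the neutrophil markers, were the lowest. Without both of them, Birc3 still passed (log2 fold change 0.322, adjusted p = 5.95e-05 by edgeR).

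Vdac1, the outer membrane channel, had a log2 fold change of 0.15 (SE 0.04, adjusted p = 0.0235 by edgeR), a call lost in 4 of the 8 fits that left out 1 library, those without control 1 or 4 and without So(d18:1) 2 or 4 (adjusted p up to 0.0713). The genes of the apoptosome itself did not pass: Apaf1 had a log2 fold change of 0.08 (adjusted p = 0.346 by edgeR), Casp9 one of 0.04 (adjusted p = 0.715) and Cycs, cytochrome c, one of -0.17 (adjusted p = 0.413).

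Of 13 death receptor genes tested, 3 rose and 0 fell by edgeR, against 3.87% and 5.07% of all tested genes, with a median log2 fold change of 0.04. Fas, the death receptor, measured 19.8, 20.5, 16.4 and 18.2 CPM in the controls and 23.7, 24.8, 22.1 and 24.5 CPM after So(d18:1), without overlap (log2 fold change 0.35, SE 0.08, adjusted p = 0.00686 by edgeR). Ripk3, the kinase of necroptosis, measured 20.6, 20.1, 17.4 and 19.3 CPM in the controls and 23.3, 31.0, 25.9 and 27.3 CPM after So(d18:1) (log2 fold change 0.48, SE 0.08, adjusted p = 0.000720 by edgeR). Mlkl, which RIPK3 phosphorylates to form membrane pores, had a log2 fold change of 0.30 (SE 0.08, adjusted p = 0.0232 by edgeR). In these 3 genes every So(d18:1) library lay above every control, and the groups did not overlap in 15.0% of all tested genes. The Mlkl call was lost in 4 of the 8 fits that left out 1 library, those without control 3 or 4 and without So(d18:1) 1 or 2 (adjusted p up to 0.0920). Without control libraries 3 and 4 together, Ripk3 passed (log2 fold change 0.407, adjusted p = 0.00995 by edgeR), while Fas (0.239, adjusted p = 0.106) and Mlkl (0.161, adjusted p = 0.264) did not. Casp8, which cleaves BID, had a log2 fold change of -0.08 (adjusted p = 0.288 by edgeR).

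**Figure D5:**
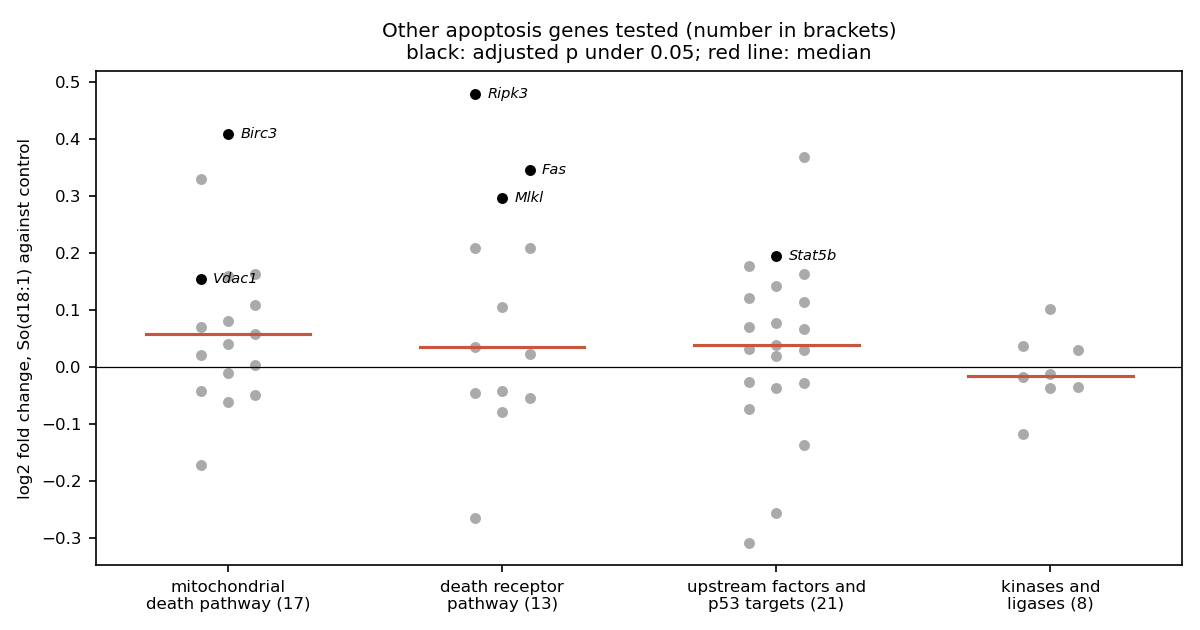
Log2 fold change of So(d18:1) against control (vertical axis) for the tested genes of 4 lists, with 1 point per gene, called genes in black with their symbols, others in grey, and the median of each list as a red line. All 6 called genes are higher, led by Ripk3 at 0.48 and Birc3 at 0.41, while the medians lie between -0.02 and 0.06.

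Of 21 genes upstream of the family tested, transcription factors and p53 targets, 1 rose and 0 fell by edgeR, against 3.87% and 5.07% of all tested genes, and 6 had an unadjusted p under 0.05, against 23.4%. Their median log2 fold change was 0.04. The gene that rose was Stat5b, a transcription factor that acts downstream of cytokine receptors, with 97.0, 95, 88.1 and 97.5 CPM in the controls and 105, 111, 108 and 108 CPM after So(d18:1) (log2 fold change 0.19, SE 0.05, adjusted p = 0.00890 by edgeR). Trp53 itself had a log2 fold change of -0.03 (SE 0.05, adjusted p = 0.796 by edgeR), and Cdkn1a, its best-known target, one of 0.14 (SE 0.04, adjusted p = 0.0509). The groups did not overlap in 5 of the 21 genes, against 15.0% of all tested genes. These were Cdkn1a, Stat5b, Stat5a (log2 fold change 0.18, adjusted p = 0.0580 by edgeR), Stat3 (0.11, adjusted p = 0.0950) and Ddit3 (-0.31, adjusted p = 0.0708). Cdkn1a was called with library size alone, with no filter on low counts, with DESeq2 and without So(d18:1) library 2. Other p53 targets of the list went both ways, and with all libraries edgeR called none of them. Log2 fold changes were negative in Aen (-0.26), Sesn1 (-0.14), Mdm2 (-0.04) and Zmat3 (-0.03). They were positive in Phlda3 (0.16), Trp53inp1 (0.12), Ccng1 (0.08) and Sesn2 (0.03). Of 8 kinases and ubiquitin ligases that act on BCL2 family proteins, 0 were called by edgeR and 2, Huwe1 and Mapk3, named after their values were seen, had an unadjusted p under 0.05, against 23.4% of all tested genes, with a median log2 fold change of -0.02. DESeq2 also called 0 of them.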

How the data were processed

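RNA was sequenced from 4 control and 4 So(d18:1) BMDM libraries. Per the labels, Trim Galore 0.6.7, HISAT2 2.2.1 with mm10, and featureCounts 2.0.1 were used upstream. The authors deposited raw counts per gene, with a gene length. Identifiers were matched to GENCODE symbols of GRCm38 (52081 of 55357). In R 4.3.3, edgeR 4.0.16 with filterByExpr, TMM scaling and the robust quasi-likelihood F test was fitted over all genes, with Benjamini-Hochberg adjustment over all 14514 tested and calls at an adjusted p under 0.05. The SE was computed as abs(log2 fold change)/√F. CPM are on the TMM scale, and RPKM use the deposited length. The code was tested on simulated data. The alternatives were DESeq2 1.42.0, limma 3.58.1 voom, other scalings and filters, a replicate block, the rule of the paper (unadjusted p under 0.05, 1.5-fold or more), and fits without 1 library. The summed Bcl2a1 genes with a library left out, and a fit without control libraries 3 and 4, were added after seeing the data. The members, lists and named-gene rule (all members, the other Bcl2a1 genes and called genes of each list) were chosen with earlier results of these data known, and genes named outside this rule were chosen after their values were seen. Where 2 identifiers shared the symbol Ddit3, the one with more counts was used. Bcl2a1 reads were summed before the fit. Words of 50 bases were compared between transcripts. A gene of the mitochondrial list is not reported here.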

Additional observations from a re-analysis of the deposited data

Results flagged for a closer look

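Among 38 groups of 4 libraries examined, 1 held a library far from the other three, where chance gives about 1.9 (1 in 20). It was Bcl2 in So(d18:1) libraries, where library 1 stood at 0.729 CPM and the others between 0.621 and 0.633 CPM. The gap was 0.884 of the whole range. All 4 values lay below every control library. They rest on 13, 14, 12 and 16 reads in So(d18:1) libraries 1 to 4, so library 1 was not apart in reads.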

How the results depend on the processing

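Over the 17 alternatives other than the 1.5-fold rule, Bcl2 and Fas kept their direction and call in 16, all but the fit without both control libraries 3 and 4, Birc3, Ripk3 and Stat5b kept theirs in 17, and Mcl1 stayed uncalled in 17. Without control libraries 3 and 4, chosen after seeing the data and with fewer samples, 865 genes, 1 member, 1 gene of the mitochondrial list (Birc3), 1 death receptor gene and 3 upstream genes were called. Bcl2 (-0.882), Bcl2a1b (-0.489) and Bbc3 (0.221) no longer passed, and the log2 fold changes of Bax (0.0405) and Pmaip1 (-0.0213) changed sign. Under the 1.5-fold rule (unadjusted p under 0.05), 564 genes were called in all, 2 members (Bcl2 and Bcl2a1b) and 1 other family gene (Bcl2a1d). It called 0 genes of the mitochondrial list, 0 death receptor and 0 upstream genes, so Birc3, Fas, Ripk3 and Stat5b were not called under it. With no filter on low counts, 4 genes of the mitochondrial list and 2 upstream genes were called. The log2 fold changes of Bcl2l1 (-0.496) and Bak1 (0.172) then passed while that of Bcl2l11 (-0.132) did not. With library size alone, 2 upstream genes (Stat5b and Cdkn1a) were called and Bcl2l11 (-0.13) did not pass. With DESeq2, 2 upstream genes were called and Bcl2l1 passed (-0.502). Leaving out 1 library gave 815 to 1370 genes called in all, the lowest without So(d18:1) library 2. It gave 2 to 4 members, 0 to 1 other family genes, 1 to 3 genes of the mitochondrial list and 1 to 2 upstream genes. The 2 remaining members in the fits without control 4 and without So(d18:1) 2, 3 or 4 were Bcl2 and Bbc3. The log2 fold changes then ranged from -1.37 to -1.08 in Bcl2, -0.606 to -0.332 in Bcl2l1, -0.884 to -0.558 in Bcl2a1b, -0.156 to -0.12 in Bcl2l11, 0.195 to 0.244 in Bbc3 and 0.114 to 0.225 in Bak1. That of Bax ranged from -0.0542 to 0.00934 and was positive without control 3 (0.00877) and without So(d18:1) 1 (0.00934), and that of Bid ranged from -0.00413 to 0.101 and was negative without So(d18:1) 2 (-0.00413). The causes were not tested. Replicate numbers did not pair the libraries: deviations of same-numbered libraries correlated at -0.0035 to 0.100, and 1 of 4 controls correlated best with its own number. A replicate block called 5 members, adding Bcl2l1 (-0.48), and 2 upstream genes, adding Cdkn1a. Depth limits Bcl2 and the Bcl2a1 genes most, at 12 to 85 reads per library for Bcl2 and Bcl2a1b.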
